A study of Mus musculus with 9 samples.

Results

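The genes for cystine uptake, glutathione synthesis and reduction, the thioredoxin system and quinone reduction were followed in mouse liver. They are known targets of NRF2, the transcription factor encoded by Nfe2l2 (NFE2L2 in human). The 10 members were taken by symbol from a table of 24419 symbols: Slc7a11, Gclc, Gclm, Gsr, Gpx2, Txn1, Txnrd1, Prdx1, Srxn1 and Nqo1. Of these, 9 had at least 1 count and 5 had enough counts for edgeR's test.

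Liver RNA was sequenced from 9 male FVB mice on normal diet, 3 in each of 3 groups. CTRL mice were 13, 13 and 17 weeks old, and their labels name no plasmid, so whether they were injected is not given. MODEL1 mice, each 18 weeks old, received NFE2L2 G31A and CTNNB1 T41A, the latter a change in beta-catenin. MODEL2 mice, 19, 20 and 22 weeks old, received NFE2L2 T80K with the same CTNNB1 T41A. The plasmids, 20 µg of each in 2 ml of saline, were pushed into the tail vein by hydrodynamic injection, a rapid large-volume method that carries DNA into part of the hepatocytes. A Sleeping Beauty transposase was included, an enzyme that integrates the transposon into chromosomes. No group carries an NFE2L2 or a CTNNB1 change alone, so against CTRL their effects, and those of injection, cannot be told apart. The series' design text says that both plasmid pairs gave liver tumours, and the labels do not say whether the sampled liver was tumour.

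In unstressed cells KEAP1 holds NRF2 through its DLG and ETGE motifs and passes it to the CUL3 ubiquitin ligase for degradation. G31A lies in the first motif and T80K in the second. Freed NRF2 enters the nucleus, pairs with small MAF proteins and binds antioxidant response elements. Among its targets in liver are the enzymes that make glutathione, the main thiol of hepatocytes, and those that keep thioredoxin and peroxiredoxins reduced.

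Library totals ran from 219504 to 325177 counts, a shallow depth at which 3 counts in a library, the most that a count of 0 allows, correspond to 9.43 to 14.6 CPM. CPM here are counts per 1000000 of the library's filtered total, scaled with edgeR's TMM factors. The ribosomal precursor Rn45s took 2.20% to 13.4% of counts, with the highest shares in CTRL replicate 1 and MODEL1 replicates 1 and 3. All 10 hepatocyte markers were detected, but together they held only 422 to 879 counts per library. Of the symbols placed on the genome, 24.2% have an exon opposite an exon of another gene, and these symbols held 79.0% of the placed counts. The strand setting of the counting is not given in the sources used here, and with an unsuited setting a count could miss a gene's own mRNA or hold reads from the other strand. All values of the members below are therefore counts assigned to a symbol, and how well they measure its mRNA was not tested. Of the 10 members, Gclm alone has such an overlap, of 296 bases with Gm17494. Among other cell types, 6 macrophage markers summed to 7 to 11 counts per CTRL library, 18 to 25 per MODEL1 and 8 to 10 per MODEL2 library, with Adgre1 at 0 in all libraries. The 6 endothelial markers summed to 89 to 100, 47 to 76 and 59 to 101 counts, and the 6 stellate markers to 0 to 4, 4 to 6 and 0 to 2. Of 5 erythroid markers 4 were at 0, and the remaining one, Alas2, ranged from 28 to 124 counts. Cholangiocyte, T cell and B cell markers each summed to at most 4 counts in a library, and the 3 neutrophil markers in the table were at 0. The part of these differences in the results below was not tested. In whole tissue, fewer cells of a type and less RNA per cell cannot be told apart.

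The members together held 36, 34 and 39 counts in the CTRL libraries, 217, 219 and 229 in MODEL1, and 133, 97 and 101 in MODEL2. Scaled, this was 145 to 165 CPM in CTRL, 719.7 to 930.5 in MODEL1 and 411 to 510.1 in MODEL2, so the 3 groups did not overlap. Gclc alone gave 38.9% to 71.8% of these counts in a library. Each CTRL library had a count in 6 or 7 of the 10 members, each MODEL1 library in 9 and each MODEL2 library in 8.

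**Figure D1:**
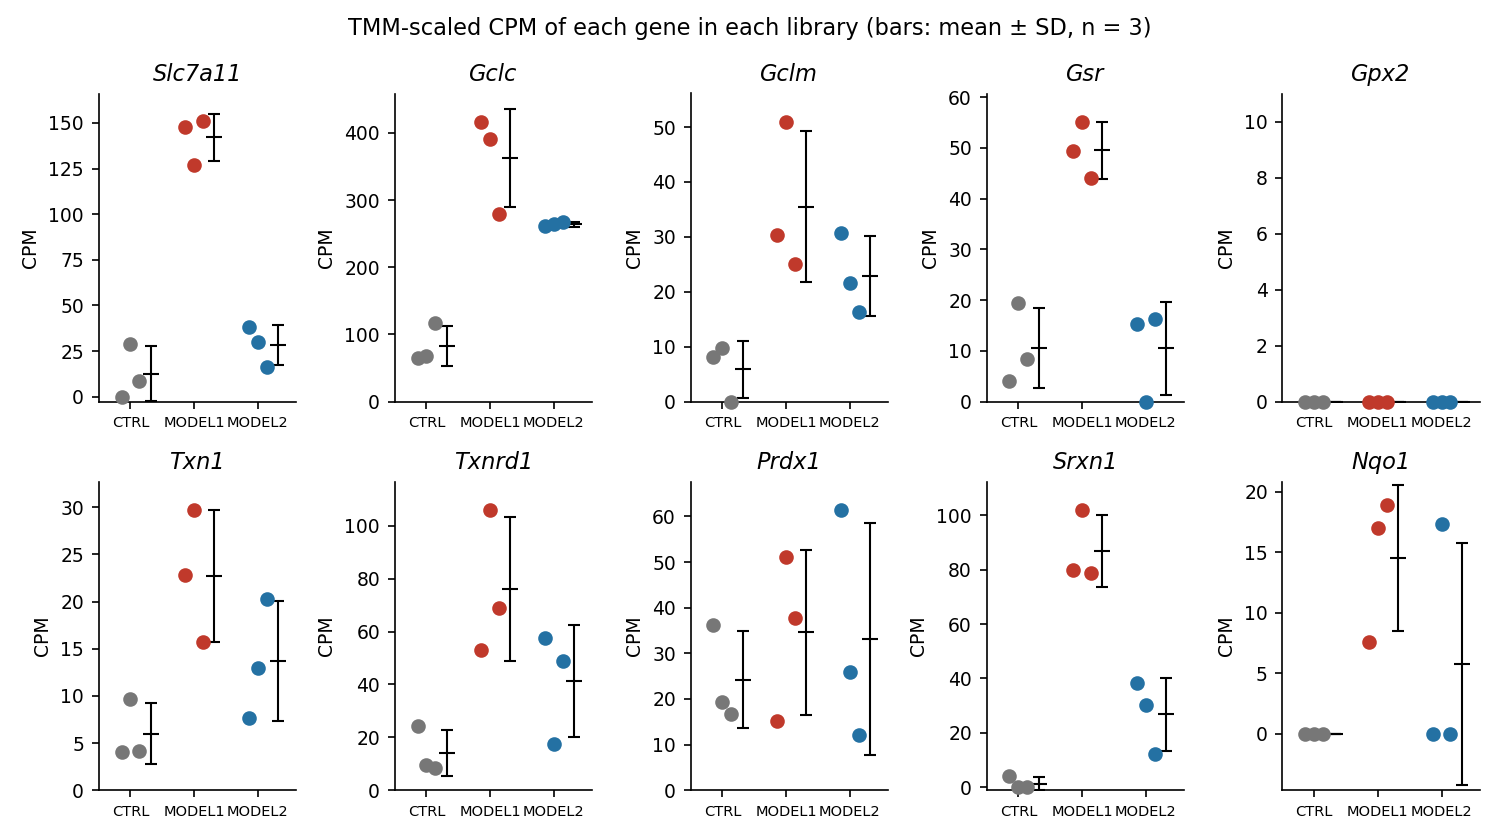
TMM-scaled CPM (vertical axis, a separate scale for each gene) of the 10 members in the 9 libraries, 3 each of CTRL (grey), MODEL1 (red) and MODEL2 (blue); each point is a library and the black bar is the mean ± SD. All MODEL1 points lie above all CTRL points for 8 genes, Prdx1 overlaps between groups, and Gpx2 is at 0 throughout.

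RefSeq promoter windows of build GRCm38.p6, from 250 bases before to 50 bases after an annotated start, were found for 8 members, with 3 starts for Txnrd1. Gclc and Gsr had no window and were not searched. The windows come from the C57BL/6J reference, not from FVB. Each was searched on both strands for TGACNNNGC, the core of the antioxidant response element, and for TGANTCA, the core of the AP-1 site, which can overlap the former. The element core was present in 4 of the 10 windows, each from a different member, against 12.4% of all 32851 promoter windows. The AP-1 core was present in those of Prdx1 and Srxn1, against 7.81% of all windows. A match is a description of these letters and not a shown binding site.

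The window of Srxn1 is given whole because Srxn1 differed from CTRL in both models (chr2:152105274-152105573, plus strand). Capitals mark its 2 AP-1 cores, 102 and 45 bases before the start, and its element core, read on the opposite strand, 28 bases after it. The AP-1 core nearer the start continues as TGAGTCAgc, which has the letters of TGACNNNGC but for a G in place of the C. Forms of the element other than TGACNNNGC were not searched.
Srxn1: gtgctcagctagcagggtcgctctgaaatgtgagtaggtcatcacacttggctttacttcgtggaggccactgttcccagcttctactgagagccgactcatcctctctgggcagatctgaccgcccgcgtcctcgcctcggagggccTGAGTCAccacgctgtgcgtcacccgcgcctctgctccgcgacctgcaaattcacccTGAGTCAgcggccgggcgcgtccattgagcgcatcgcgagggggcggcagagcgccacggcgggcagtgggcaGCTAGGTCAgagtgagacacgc

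Shorter stretches show the element core, in capitals and again on the opposite strand, in the other windows that held it. They lie at chr3:122245387-122245467 for Gclm, chr10:82859078-82859158 for the middle start of Txnrd1 and chr4:116685430-116685510 for Prdx1, all on the plus strand, with the core 134, 92 and 133 bases before the start.
Gclm: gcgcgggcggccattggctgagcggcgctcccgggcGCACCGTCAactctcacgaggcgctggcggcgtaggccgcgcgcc
Txnrd1: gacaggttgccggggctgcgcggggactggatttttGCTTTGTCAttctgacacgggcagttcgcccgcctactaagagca
Prdx1: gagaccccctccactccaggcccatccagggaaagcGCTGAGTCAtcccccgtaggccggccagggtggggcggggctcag

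The window of Slc7a11, the only tested member that passed edgeR's test between the models, is also shown (chr3:50443564-50443863, minus strand). It held neither core, and the windows of Gpx2, Txn1 and Nqo1 held neither. Bases outside the windows were not searched, so a missing core does not show that a gene lacks the element.
Slc7a11: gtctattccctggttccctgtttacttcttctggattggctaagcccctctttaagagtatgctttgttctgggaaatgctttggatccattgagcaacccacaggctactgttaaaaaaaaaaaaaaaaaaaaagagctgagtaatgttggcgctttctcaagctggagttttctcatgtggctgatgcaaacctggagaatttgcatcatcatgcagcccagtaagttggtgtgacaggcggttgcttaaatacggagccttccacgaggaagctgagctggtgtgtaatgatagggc

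Each model was compared with CTRL. MODEL2 was also compared with MODEL1, from which it differs by label in the NFE2L2 change, beside the same CTNNB1 change, and in age. Ages do not overlap between any of the groups, so none of these comparisons can tell the plasmids from age. In MODEL1, Slc7a11, Gclc, Gsr, Txnrd1 and Srxn1 rose, all 5 of the tested members. In MODEL2, Gclc and Srxn1 rose, 2 of the 5. Between the models Slc7a11 was lower in MODEL2, 1 of the 5. Over all 2639 genes tested by edgeR's quasi-likelihood test, the share called higher was 11.9% in MODEL1 and 8.30% in MODEL2 against CTRL, and the share called lower in MODEL2 than in MODEL1 was 3.41%. The median log2 fold change of the 5 tested members was 2.36 for MODEL1 and 1.50 for MODEL2, both against CTRL, beside 0.00 and 0.00 over all genes tested. For MODEL2 against MODEL1 it was -1.66, beside 0.01. Slc7a11, Gsr and Srxn1 passed the filter through the MODEL1 libraries alone and Txnrd1 through MODEL1 and 2 MODEL2 libraries. These 4 therefore had to be high in MODEL1 to be tested, which also limits what their single calls show. The counts and medians are no support for a rise of the whole set, or for a lower level of it in MODEL2 than in MODEL1. Gclc passed the filter in all 9 libraries.

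Counted over the 9 members with a count, 8 had all MODEL1 libraries above all CTRL libraries, the exception being Prdx1, where 7.56% of the 14907 symbols with a count were so placed. All MODEL2 libraries lay above all CTRL libraries for Gclc, Gclm and Srxn1, against 4.98% of symbols. All MODEL2 libraries lay below all MODEL1 libraries for Slc7a11, Gclc, Gsr and Srxn1, against 6.17%. To be so placed, a symbol needs a count in all 3 libraries of the higher group. The 14907 symbols need only 1 count in all, and 2639 of them had enough counts for edgeR's test. These shares are therefore not matched in counts to the members, which were chosen with earlier results of these data known. Both comparisons with CTRL use the same 3 CTRL libraries. With 3 against 3 libraries an exact two-sided permutation test cannot go below p = 0.1, and each of these separated members was at that value.

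**Figure D2:**
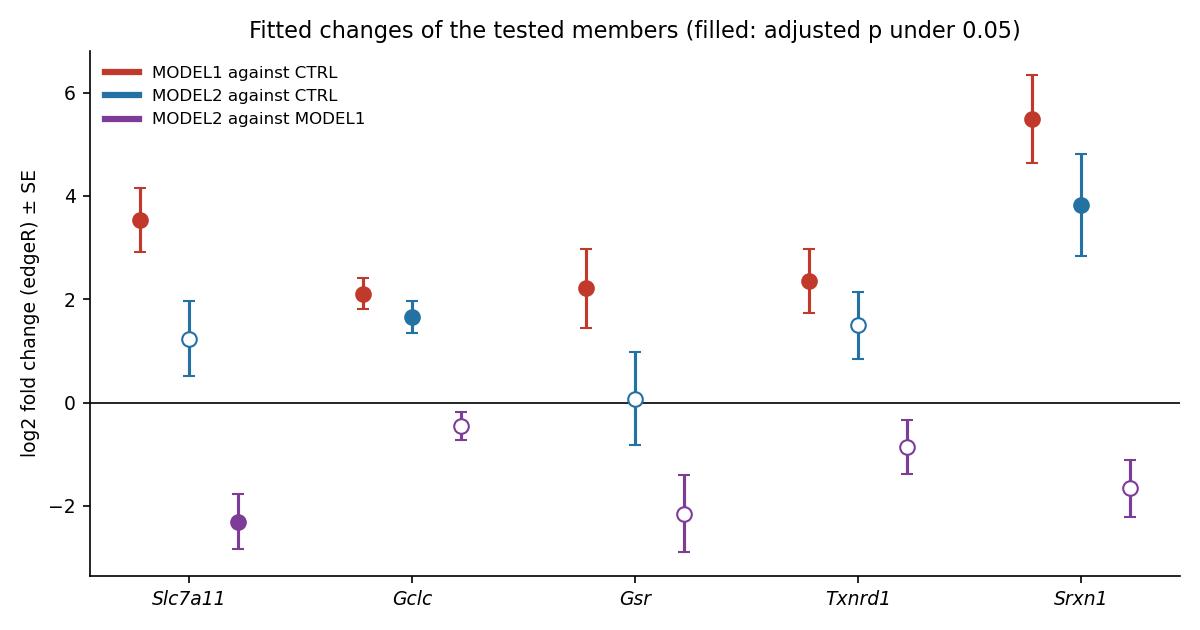
Log2 fold changes fitted by edgeR, with their standard errors (vertical axis), for the 5 tested members in the 3 comparisons; filled circles have an adjusted p under 0.05. All 5 are filled for MODEL1 against CTRL, Gclc and Srxn1 for MODEL2 against CTRL, and Slc7a11 alone for MODEL2 against MODEL1.

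The member for cystine uptake, itself not measured, was Slc7a11 (mm10 chromosome 3, 49892526 to 50443614, minus strand). It encodes the light chain (xCT) of the transporter that brings cystine into the cell in exchange for glutamate. Its counts were 0, 6 and 2 in the CTRL libraries (replicates 1, 2 and 3, the order used for all members), 39, 30 and 48 in those of MODEL1, and 10, 7 and 4 in those of MODEL2. The scaled level was 12.5 ± 15.0 CPM for CTRL, 142 ± 12.8 for MODEL1 and 28.3 ± 11.2 for MODEL2 (mean ± SD, n = 3). The MODEL1 libraries stood above the other 6, and those of MODEL2 overlapped CTRL. Slc7a11 rose by 3.54 ± 0.62 log2 units (SE) in MODEL1 (edgeR adjusted p = 1.7e-04) and had a log2 fold change of 1.24 ± 0.72 in MODEL2 (adjusted p = 0.301). It was lower in MODEL2 than in MODEL1 by the test of that difference, with a log2 fold change of -2.31 ± 0.53 (adjusted p = 0.0104). Only its MODEL1 libraries carried Slc7a11 past the filter, so it had to be high there to be tested. The MODEL1 call held in 18 of 18 alternative settings, with a log2 fold change from 2.71 without the 3 libraries rich in Rn45s to 4.94 without CTRL replicate 2, which held 6 of the 8 CTRL counts. It was 2.91 without CTRL replicate 1 and 4.62 with age as a covariate. The MODEL2 change passed in 1 of 17 alternatives, at 2.64 ± 0.88 without CTRL replicate 2 (adjusted p = 0.0492). It was 2.91 ± 1.63 with age as a covariate (0.496), 0.63 ± 0.66 without CTRL replicate 1 (0.672) and 0.64 ± 0.76 when all 3 libraries rich in Rn45s were left out (0.732). The call between the models was lost with age as a covariate (adjusted p = 0.266), without MODEL2 replicate 3 (0.0656) and without the libraries rich in Rn45s (0.146). Part of the Slc7a11 transcript matches tubulin genes and pseudogenes at over 90% identity, and Tuba1a, Tuba1b and Tuba1c held 13, 21 and 14 counts over all libraries. Slc3a2, the heavy chain that carries xCT to the membrane, was too low to test, with 5, 6 and 6 counts in the 3 groups.

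Glutathione synthesis starts with glutamate-cysteine ligase, made of a catalytic subunit, Gclc, and a modifier subunit, Gclm, that raises its activity. Gclc (chromosome 9, 77754535 to 77794485, plus strand) held 16, 14 and 28 counts in CTRL, 110, 92 and 89 in MODEL1 and 68, 61 and 66 in MODEL2. Its level was 83.3 ± 29.5 CPM in CTRL, 363 ± 73.1 in MODEL1 and 264 ± 3.79 in MODEL2, with no overlap between the 3 groups. The MODEL2 libraries, at 261, 264 and 268 CPM, were closer to each other than those of CTRL or MODEL1, with a coefficient of variation of 1.44% against 35.5% and 20.1%. Counting error alone is larger than 1.44% at 61 to 68 counts, so this closeness does not measure the spread between MODEL2 mice. Gclc rose by 2.11 ± 0.30 log2 units in MODEL1 (edgeR adjusted p = 1.7e-05) and by 1.65 ± 0.31 in MODEL2 (adjusted p = 6.3e-04). The models did not differ by the test (log2 fold change -0.45 ± 0.27, MODEL2 against MODEL1, adjusted p = 0.375). The MODEL1 call held in 18 of 18 alternatives and the MODEL2 call in 17. With age as a covariate the MODEL2 change was 0.91 ± 0.61 (adjusted p = 0.586).

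Gclm (chromosome 3, 122245557 to 122270732, plus strand) did not pass the filter, and its counts were pooled per group. Its counts were 2, 2 and 0 for CTRL, 8, 12 and 8 for MODEL1 and 8, 5 and 4 for MODEL2. The lowest library of either model, at 16.3 CPM, was above the highest CTRL library, at 9.71 CPM. Against CTRL the ratio of scaled counts was 5.93 for MODEL1 (exact 95% interval 2.07 to 23.3, counting error only) and 3.99 for MODEL2 (1.30 to 16.3). Against MODEL1 that of MODEL2 was 0.672 (0.345 to 1.27). The MODEL1 ratio was 3.89 (1.36 to 15.2) without CTRL replicate 3, the CTRL library at 0, and 11.3 (2.52 to 104) without the libraries rich in Rn45s. The MODEL2 interval included 1 without CTRL replicate 3, at 2.61 (0.852 to 10.7), and without MODEL2 replicate 1, at 3.26 (0.910 to 14.5). With no filter, edgeR gave Gclm adjusted p-values of 0.114, 0.551 and 0.844. Per base of merged exon, Gclc stood 24.2 times higher than Gclm in CTRL (8.97 to 91.9), 17.4 times in MODEL1 (11.8 to 26.6) and 19.2 times in MODEL2 (11.7 to 33.6). These intervals overlapped and cover counting error only, and a change of the ratio between groups was not tested.

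The counts at low values may not be independent, since a value of 2 was more frequent than a value of 1 in 8 of the 9 libraries (14738 against 13686 in all). The counting intervals were therefore also computed on halved counts, a setting chosen after seeing the data. Those of Gclm became 1.36 to 53.8 in MODEL1 and 0.811 to 38.2 in MODEL2, so in MODEL2 the interval then included 1.

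The member for glutathione reduction, itself not measured, was Gsr, the NADPH-dependent reductase that turns oxidised glutathione back (chromosome 8, 33652523 to 33698163, plus strand). In CTRL its counts were 1, 4 and 2, in MODEL1 13, 13 and 14, and in MODEL2 4, 0 and 4. This was 10.6 ± 7.93, 49.5 ± 5.62 and 10.5 ± 9.13 CPM. The MODEL1 libraries lay above all others, while those of MODEL2 fell within or below the CTRL range. Gsr rose by 2.21 ± 0.76 log2 units in MODEL1 (edgeR adjusted p = 0.0376) and had a log2 fold change of 0.07 ± 0.90 in MODEL2 (adjusted p = 0.972). Against MODEL1, MODEL2 had a log2 fold change of -2.15 ± 0.74 that did not pass (adjusted p = 0.0861). It passed in 1 of 18 alternatives, with only those 2 groups fitted (0.0485). The MODEL1 call was lost in 12 of 18 alternatives. It was lost without CTRL replicate 1 (0.189) or 3 (0.129), without MODEL1 replicate 1 (0.0965), 2 (0.115) or 3 (0.104), and without MODEL2 replicate 1 (0.0597) or 3 (0.0584). It was also lost with age as a covariate (0.341), without the libraries rich in Rn45s (0.463), with the replicate block (0.0740) and with either wider filter (0.102 with none, 0.0746 at 1 CPM). The change itself stayed between 1.80 and 2.89 log2 units over the 18 alternatives, the former without CTRL replicate 1 and the latter without CTRL replicate 2.

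Gpx2, a selenium-dependent glutathione peroxidase best known from the gut epithelium, had 0 counts in every library. Its symbol lies within the gene body of Fntb on the other strand, and a pseudogene, Gpx2-ps1, matches it at 98.1% identity and was also at 0. In a single library, a count of 0 allows a level of up to the 9.43 to 14.6 CPM that 3 counts represent.

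The thioredoxin system passes electrons from NADPH through thioredoxin reductase to thioredoxin, which reduces peroxiredoxins and other proteins. Txnrd1, the cytosolic reductase (chromosome 10, 82833951 to 82897712, plus strand), held 6, 2 and 2 counts in CTRL, 14, 25 and 22 in MODEL1 and 15, 4 and 12 in MODEL2. Its level was 14.1 ± 8.79, 76.2 ± 27.2 and 41.2 ± 21.2 CPM. MODEL1 lay above CTRL in all libraries, and MODEL2 replicate 2, at 17.3 CPM, fell below CTRL replicate 1, at 24.2 CPM. Txnrd1 rose by 2.36 ± 0.62 log2 units in MODEL1 (edgeR adjusted p = 0.00721), and its log2 fold change in MODEL2 was 1.50 ± 0.65 (adjusted p = 0.145). The difference between the models did not pass (log2 fold change -0.86 ± 0.53, adjusted p = 0.393). The MODEL1 call was lost in 1 of 18 alternatives, age as a covariate (2.85 ± 1.03, adjusted p = 0.0866). The change was 2.98 without CTRL replicate 1, the highest CTRL library, and 3.42 without the libraries rich in Rn45s.

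Srxn1, sulfiredoxin, restores peroxiredoxins whose active cysteine has been over-oxidised (chromosome 2, 152105516 to 152111376, plus strand). Its counts were 1, 0 and 0 for CTRL, 21, 24 and 25 for MODEL1 and 10, 7 and 3 for MODEL2. The MODEL1 libraries held 78.6 to 102 CPM and those of MODEL2 12.2 to 38.4, and CTRL replicate 1, at 4.04 CPM, was the only CTRL library with a count. The 3 groups did not overlap. On 1 CTRL count the ratio was 59.3 in MODEL1 (10.3 to 2375) and 18.8 in MODEL2 (3.0 to 777), with edgeR adjusted p-values of 5.0e-05 and 0.0112. The MODEL1 call held in 18 of 18 alternatives. The MODEL2 call was lost without MODEL2 replicate 1 (0.0545) and with age as a covariate (0.0796), and with only CTRL and MODEL2 fitted Srxn1 did not pass the filter. Without CTRL replicate 1 no CTRL count is left, and the fitted changes, 5.49 and 3.83 log2 units with it, became 7.43 and 5.79 and are no bounds. The MODEL2 level was 0.316 times that of MODEL1 (0.182 to 0.526), which did not pass edgeR's test over all 3 groups (log2 fold change -1.66 ± 0.55, adjusted p = 0.0731) and passed in 1 of 18 alternatives, with only those 2 groups fitted (0.0299). With age as a covariate this change was -0.53 ± 1.07 (adjusted p = 0.869).

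Txn1 and Prdx1, the abundant cytosolic thioredoxin and peroxiredoxin, did not pass the filter. Txn1 (chromosome 4, 57943373 to 57956411, minus strand) held 1, 2 and 1 counts in CTRL, 6, 7 and 5 in MODEL1 and 2, 3 and 5 in MODEL2. Its ratio was 3.81 in MODEL1 (1.26 to 15.5) and 2.34 in MODEL2 (0.676 to 10.2) against CTRL. The MODEL1 interval included 1 on halved counts (0.789 to 36.3), and also without CTRL replicate 1 (0.953 to 17.3), CTRL replicate 3 (0.973 to 17.7) or MODEL1 replicate 2 (0.970 to 14.1). MODEL2 overlapped both other groups, and its ratio to MODEL1 was 0.615 (0.254 to 1.41).

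Prdx1 (chromosome 4, 116685544 to 116700822, plus strand) held 9, 4 and 4 counts for CTRL, 4, 12 and 12 for MODEL1 and 16, 6 and 3 for MODEL2. The libraries of all 3 groups overlapped, from 12.2 to 61.4 CPM. Its ratio was 1.40 in MODEL1 (0.738 to 2.72), 1.38 in MODEL2 (0.716 to 2.72) and 0.988 between the models (0.553 to 1.76). These intervals cover counting error only, and their upper ends rose to 3.74 and 3.77 on halved counts and to 4.83 in both models without CTRL replicate 1. The ratio in MODEL1 was 2.83 (1.06 to 7.99) without the libraries rich in Rn45s, and without MODEL2 replicate 1 that in MODEL2 was 0.768 (0.301 to 1.82) and that between the models 0.550 (0.228 to 1.20). Reads of Prdx1 may be shared with 3 pseudogenes and those of Txn1 with 1, at 90.9% to 98.3% identity.

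Nqo1, the quinone reductase often used as a readout of NRF2 (chromosome 8, 107388225 to 107403206, minus strand), had 0 counts in all CTRL libraries, 2, 4 and 6 in MODEL1, and 4 in MODEL2 replicate 2 with 0 in the other MODEL2 libraries. The MODEL1 level, 14.5 ± 6.04 CPM, was 3.39 times what 3 counts over the CTRL libraries together would give. The exact 95% interval of its ratio to CTRL, which also covers the counting error of MODEL1, began at 2.35, and at 0.997 on halved counts. Without CTRL replicate 1 or 3 the former value was 2.18 or 2.22, and on halved counts 1.69. For MODEL2 no fold is given, since its libraries overlapped CTRL and its interval began at 0.619. The ratio of MODEL2 to MODEL1 was 0.369 (0.0867 to 1.22), and 0.570 (0.134 to 1.88) without MODEL2 replicate 1.

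**Figure D3:**
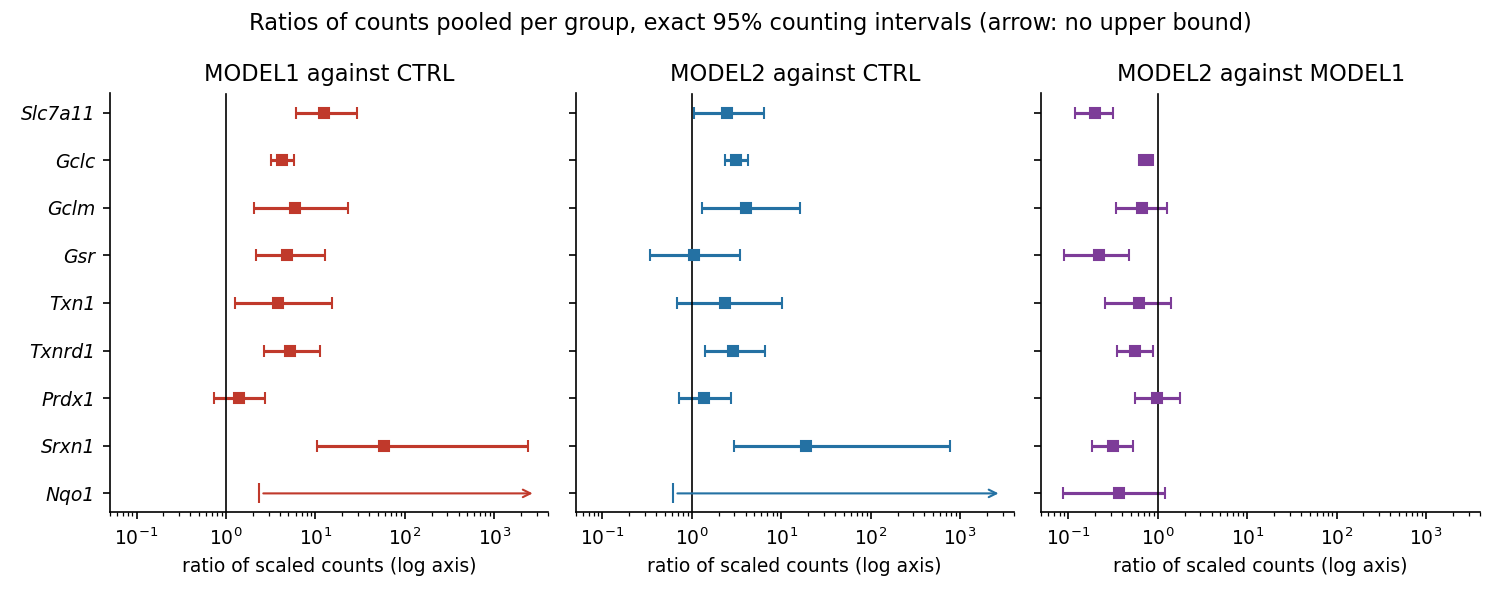
Ratios of scaled counts pooled over the 3 libraries of each group (horizontal log axis) for the 9 members with a count, in the 3 comparisons; squares are ratios, bars are exact 95% intervals for counting error only, and arrows run from the lower limit where the second group had 0 counts. In MODEL1 against CTRL the interval of Prdx1 includes 1, and in MODEL2 against MODEL1 the lowest ratios are those of Slc7a11, at 0.199, and Gsr, at 0.221.

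Levels were compared between members per kilobase of merged exon, which counts all annotated isoforms and so understates genes with many of them, such as Slc7a11 with 13.9 kb. In CTRL the order was Gclc, at 22.1 ± 7.85 CPM per kb, then Prdx1 at 7.94 ± 3.49, Txn1 at 5.69 ± 3.07 and Gsr at 3.85 ± 2.88. Txnrd1, Gclm, Slc7a11 and Srxn1 followed at 1.99, 0.942, 0.898 and 0.477 CPM per kb. In MODEL1 Gclc was at 96.3 ± 19.4 CPM per kb, followed by Srxn1 at 30.8 ± 4.68, Txn1 at 21.6 ± 6.67 and Gsr at 18.0 ± 2.04. Prdx1, Txnrd1, Slc7a11, Nqo1 and Gclm lay between 11.4 and 5.64 CPM per kb. In MODEL2 Gclc was at 70.2 ± 1.01 CPM per kb, then Txn1 at 13.0 ± 6.05, Prdx1 at 10.9 ± 8.34 and Srxn1 at 9.55 ± 4.75. Gclc stood clear of the next gene by more than the SDs in each group, while below it neighbours in the order overlapped within their SDs. Srxn1 moved from the eighth place in CTRL to the second in MODEL1.

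**Figure D4:**
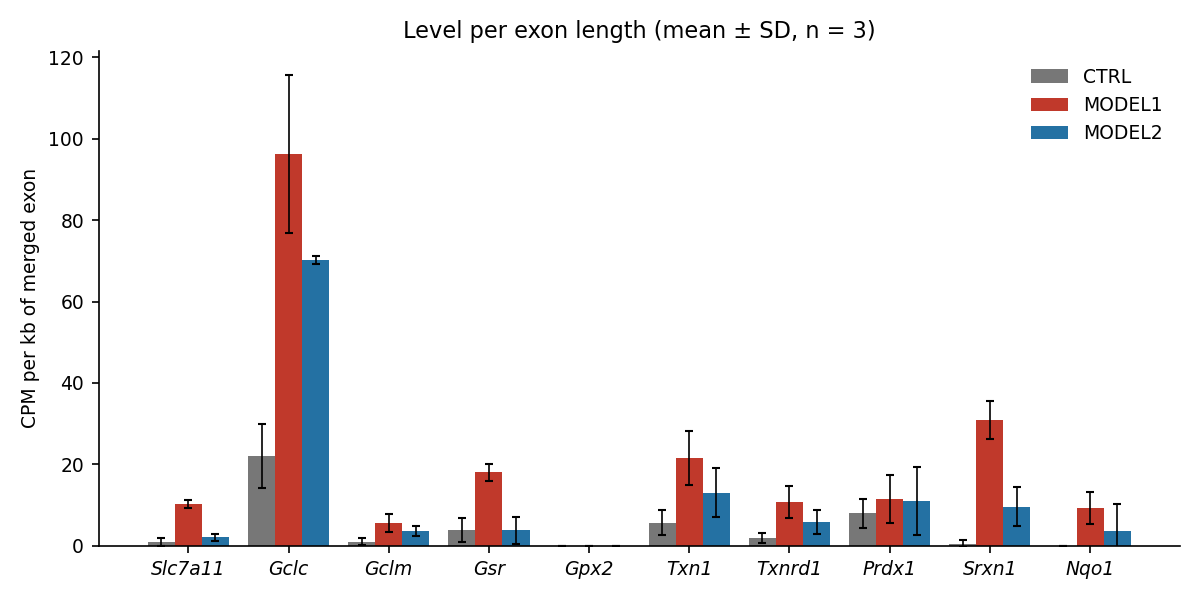
Level of each member in CPM per kilobase of merged exon (vertical axis, bars from 0, mean ± SD, n = 3) in CTRL, MODEL1 and MODEL2; lower error bars are cut at the axis. Gclc is the highest member in each group, at 22.1, 96.3 and 70.2, and Srxn1 is the second in MODEL1 at 30.8.

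A further 45 genes of cystine supply, glutathione synthesis and use, the thioredoxin system and other antioxidant enzymes were listed, 10 of which were tested. Of these, Glrx5 passed the filter through MODEL1 libraries alone, so it had to be high there to be tested. Oplah and Prdx6 passed only through libraries of the models, and Txnip mainly through those of CTRL. The numbers called and the medians given next are therefore no support for a change of the whole list. In MODEL1 4 of the 10 were higher and 1 lower, beside 11.9% and 11.0% of all genes tested, with a median log2 fold change of 0.62. In MODEL2 2 were higher and 1 lower, beside 8.30% and 4.96%, with a median of 0.76. Between the models 0 of the 10 were called by edgeR or by DESeq2. Of all genes tested, edgeR called 7.28% in either direction, 3.87% higher and 3.41% lower in MODEL2 than in MODEL1. At that share, 0 of 10 does not set the list apart. By edgeR and DESeq2, 2 and 3 of the 10 had an unadjusted p under 0.05, beside 544 of all 2639 genes by edgeR. Gss, glutathione synthetase, which adds glycine in the last step, rose by 3.63 ± 0.26 log2 units in MODEL1 (edgeR adjusted p = 7.1e-10) and by 3.13 ± 0.26 in MODEL2 (1.4e-08). Its libraries held 63.1 to 138 CPM in CTRL, 1338 to 1512 in MODEL1 and 889.9 to 1154 in MODEL2. Gss has opposite exons of Acss2, Gssos1 and Gssos2, whose reads cannot be told from its own with certainty.

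Txnrd2, the mitochondrial thioredoxin reductase, rose by 1.49 ± 0.19 log2 units in MODEL1 (edgeR adjusted p = 4.9e-06) and by 1.43 ± 0.19 in MODEL2 (1.7e-05). Its counts may include reads from the opposite strand, and its MODEL2 call was lost with age as a covariate, at a change of 1.32 ± 0.41 (adjusted p = 0.106). Glrx5, a mitochondrial glutaredoxin for iron-sulfur clusters, had 2 counts over the CTRL libraries, 60 over MODEL1 and 16 over MODEL2, a ratio to CTRL of 25.4 (6.74 to 215, edgeR adjusted p = 4.1e-04) and of 7.50 (1.76 to 67.3, adjusted p = 0.0741). Both CTRL counts were in replicate 1, and without it the fitted MODEL1 change, 4.47 log2 units, became 7.21. Snhg10 lies 409 bases from it on the opposite strand. Catalase, Cat, which breaks down hydrogen peroxide, rose by 1.08 ± 0.22 log2 units in MODEL1 (adjusted p = 8.7e-04) and had a log2 fold change of 0.66 ± 0.22 in MODEL2 (adjusted p = 0.0577).

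Txnip, which binds thioredoxin and holds it inactive, fell in both models. In CTRL it held 63, 525 and 33 counts, in MODEL1 0, 9 and 9, and in MODEL2 0, 2 and 10. Every CTRL library lay above every library of the models. The log2 fold change was -5.43 ± 0.92 in MODEL1 (edgeR adjusted p = 1.3e-04) and -5.86 ± 0.97 in MODEL2 (2.1e-04). CTRL replicate 2 held most of its CTRL counts, and without it the changes were -3.15 ± 0.69 and -3.56 ± 0.73. With age as a covariate they were -2.62 ± 1.34 and -1.59 ± 1.84 and both calls were lost (0.256 and 0.795), and Txnip has an opposite exon of Gm15441. The other tested genes, Oplah, Gpx1, Prdx6, Sod1 and Nqo2, passed in no comparison, with log2 fold changes in MODEL1 of 1.82 ± 0.74 for Oplah and of -0.12 to 0.16 for the others.

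**Figure D5:**
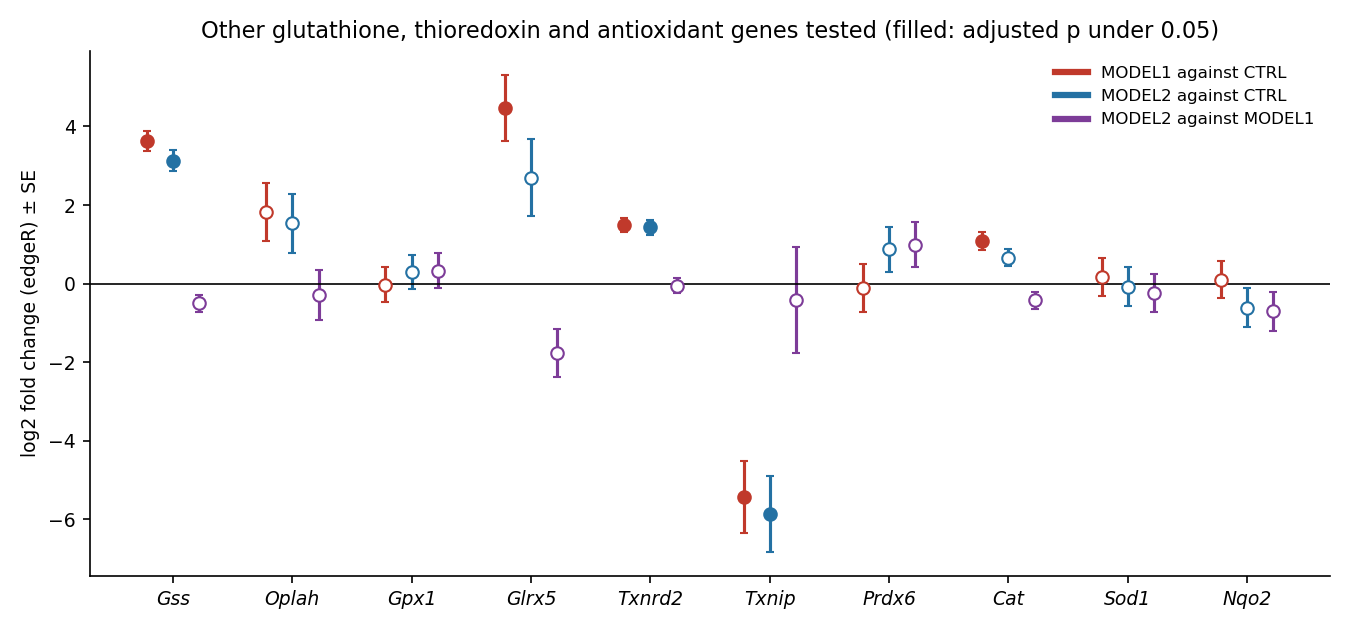
Log2 fold changes fitted by edgeR with their standard errors (vertical axis) for the 10 tested genes of the further list in the 3 comparisons; filled circles have an adjusted p under 0.05. Gss and Txnrd2 are filled and above 0 against CTRL in both models, Txnip is filled and below 0 in both, and no circle is filled for MODEL2 against MODEL1.

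The mouse symbols of the injected genes and their partners were too low to test. Nfe2l2 held 15, 25 and 7 counts in CTRL, MODEL1 and MODEL2, Ctnnb1 8, 23 and 16, Keap1 2, 9 and 9 and Cul3 3, 8 and 10, so the labels could not be checked on the injected genes. The table has 1 row for each of these symbols, so injected and endogenous transcripts could not be told apart. Whether these mouse rows count transcripts of the plasmids at all was not tested. The ratio of Nfe2l2 to CTRL was 1.41 (0.716 to 2.88) for MODEL1 and 0.438 (0.151 to 1.14) for MODEL2.

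Among the tested genes that are not members, those whose log2 CPM over the 9 libraries was most like the mean of the 5 tested members were 4930533B01Rik (Pearson r = 0.99), Grina (0.97), Gm1976 (0.97, with an opposite exon of 2700099C18Rik), Asb13 (0.96) and Gm19897 (0.96). The likeness rests on the order of the 3 groups, which all 9 points share. The mean of the 5 tested members was 4.28 to 4.68 log2 CPM in CTRL, 6.78 to 7.06 in MODEL1 and 5.25 to 5.94 in MODEL2. Of these, Slc7a11, Gsr, Txnrd1 and Srxn1 had to be high in MODEL1 to be tested, so the filter favoured a mean that is high there. Asb13 held 12.1 ± 10.5, 652 ± 177 and 95.4 ± 16.2 CPM in CTRL, MODEL1 and MODEL2, and Grina 4.41 ± 4.21, 80.7 ± 17.5 and 30.6 ± 14.5.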

How the data were processed

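The deposited table held raw counts, whole numbers per gene symbol, for 9 libraries, and each column was matched to a sample by its title. HTSeq 0.11.2, HISAT2 2.1.0, Trimmomatic 0.38 and build mm10 are named, per the submitters' processing notes; their roles, the annotation, the kit and the strand setting are not given in the sources used here. Replicates are separate mice by their labels.

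Counts were tested with edgeR 4.0.16 in R 4.3.3: filterByExpr (minimum count 10), TMM scaling, a quasi-likelihood F test over all 9 libraries with 1 coefficient per group, and Benjamini-Hochberg adjustment over 2639 genes at 0.05, two-sided. The procedure was tested on simulated data. The SE is the log2 fold change divided by the square root of F. Members below the filter were pooled per group and given as ratios with exact (Clopper-Pearson) 95% intervals, which cover counting error only. DESeq2 1.42.0 was an alternative. Coordinates and exon lengths are from GENCODE M21 (mm10), promoters from RefSeq (GRCm38.p6, the same build), and near-identical transcripts were sought with blastn 2.17.0 (90% identity, 200 bases).

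The members and lists were chosen with earlier results of these data known. The text names all members, Nfe2l2, Keap1, Cul3, Ctnnb1, called genes of the further list and the 5 genes most like the members; other names were added after values were seen. Proteins were not analysed here.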

Additional observations from a re-analysis of the deposited data

How the results depend on the processing

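Of the calls of single members, those of Gclc, Slc7a11 and Srxn1 in MODEL1 against CTRL held in all 18 alternatives. With age as a covariate, the genes called numbered 299 in MODEL1 and 71 in MODEL2 against CTRL and 101 between the models, in place of 602, 350 and 192, and the members called 3, 0 and 0 in place of 5, 2 and 1 (4, 1 and 2 at an unadjusted p under 0.05; DESeq2 without age called 5, 2 and 1). Without the 3 libraries rich in Rn45s, which leaves 1 MODEL1 library that is assumed to vary like the other groups, 299, 210 and 62 genes were called, and 0 members between the models (2 unadjusted). Leaving out 1 library gave 497 to 636, 221 to 379 and 85 to 226 genes, and 4 to 5, 1 to 3 and 0 to 1 members. With only the groups compared in the fit, 1 member was tested and called in MODEL2 against CTRL and 3 members were called between the models. The log2 fold change of Gsr in MODEL2 against CTRL, which was not called, ran from -0.34 to 0.74 when 1 library was left out and was -0.32 without the libraries rich in Rn45s. The replicate block left 125 genes called between the models and changed the call of 1 member, Gsr. Deviations of same-numbered libraries correlated at r = -0.12 to 0.01, so the numbers do not pair the mice. Ages do not overlap between any of the 3 groups and all MODEL1 mice have the same age, so age and group can be told apart only by extrapolation. The causes of these changes were not tested. At these counts 5 of 10 members could not be tested.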
